A study of Mus musculus with 24 samples.

Results

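Livers of streptozotocin-diabetic mice fed 0.1% quercetin were compared with livers of diabetic mice fed the same diet without quercetin. The 12 arrays were those labelled as the 6 replicates of each of these groups, out of 24 arrays in the series, with 1 mouse per array. All 12 mice were male BALB/c mice that were 6 weeks old on arrival, received 1 intraperitoneal injection of 185 mg/kg streptozotocin (STZ), and were included because their non-fasting blood glucose later lay between 230 and 400 mg/dL. The 0.1% quercetin mice then ate the purified AIN93G diet with quercetin for 14 days, and the STZ mice ate AIN93G alone. The series also holds 6 STZ mice fed 0.5% quercetin and 6 untreated mice, which entered the estimate of the spread and are quoted only for orientation. All probe sets with a single gene symbol were used, which were 34958 of 45101, and they stood for 18194 genes, of which 13114 were bright enough to be tested. Mice were caged in groups of 3 and the labels do not tie a mouse to its cage, so the tests treat the mice as independent and an effect of the cage cannot be told apart from that of the diet.

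Streptozotocin enters pancreatic beta cells through their glucose transporter and kills them, which leaves the liver short of insulin. In the liver insulin switches on glucose storage and fatty acid synthesis, largely through the transcription factor SREBP-1c, while glucose itself acts on the same enzymes through ChREBP (Mlxipl). Insulin also switches off glucose production by keeping FOXO1 out of the nucleus. Quercetin is a plant flavonol that the gut and liver conjugate to glucuronides, sulphates and methyl ethers, and flavonoids are known as ligands of the aryl hydrocarbon receptor and as inducers of the antioxidant factor NRF2 in cultured cells. The comparison asked what the lower dose of quercetin was associated with in a liver that had already been diabetic for a week.

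Levels below are log2(normalised intensity + 16), so a level of 4 is the floor, and differences are 0.1% quercetin minus STZ on that scale. The 12 arrays were alike, with pairwise correlations of 0.975 to 0.989 and mean intensities of 64.4 to 92.8 before normalisation. The difference between the 3' and 5' probe sets of Gapdh, a sign of RNA degradation, was -0.32 ± 0.15 at 0.1% quercetin and -0.34 ± 0.10 in STZ mice (6 arrays in each group, ± SD), with a p of 0.775 by the exact permutation test. For Actb it was 1.19 ± 0.13 at 0.1% quercetin and 1.12 ± 0.23 in STZ mice (exact permutation p = 0.500, and adjusted p = 0.775 for both measures). The liver label was borne out by its defining transcripts: the 10 hepatocyte markers tested, such as albumin (Alb), averaged 10.1 to 13.0 at 0.1% quercetin and 10.2 to 13.0 in STZ mice. On the first principal component over all 24 arrays, which carried 22.4% of the variance, the mice averaged 10.3 ± 7.71 at 0.1% quercetin and 7.04 ± 5.73 with STZ alone, against -15.4 ± 1.81 in untreated mice (SD, n = 6 each). Replicates 5 and 6 at 0.5% quercetin stood apart from the other diabetic mice and lay beside the untreated ones, at -17.2 and -19.3, and so did their Cdkn1a levels of 5.01 and 4.72, against 7.70 to 9.29 in the other 4 mice of that group. Averages at 0.5% quercetin are therefore given with and without these 2 mice. Without them the test below gave 0 genes at an adjusted p under 0.05 and 781 at an unadjusted one.

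No single gene passed the test. By limma with Benjamini-Hochberg adjustment over the 13114 genes, 0 (0%) were higher and 0 (0%) were lower at 0.1% quercetin, at a threshold of 0.05, and the smallest adjusted p was 0.356. At an unadjusted p under 0.05 there were 687 genes (5.24%), of which 331 (2.52%) were lower and 356 (2.71%) higher, and the exact permutation test of each gene gave 734 at that level and 0 after adjustment. In 27 genes (0.206%) the mice of the 2 groups did not overlap, 12 (0.0915%) lower and 15 (0.114%) higher. The values below therefore describe which genes lay apart and by how much, and they are read against these shares of all genes. Fatty acid synthesis lay lowest of the 44 lists, with a median difference of -0.35 against 0.01 for all genes tested, followed by cholesterol synthesis at -0.17.

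**Figure D1:**
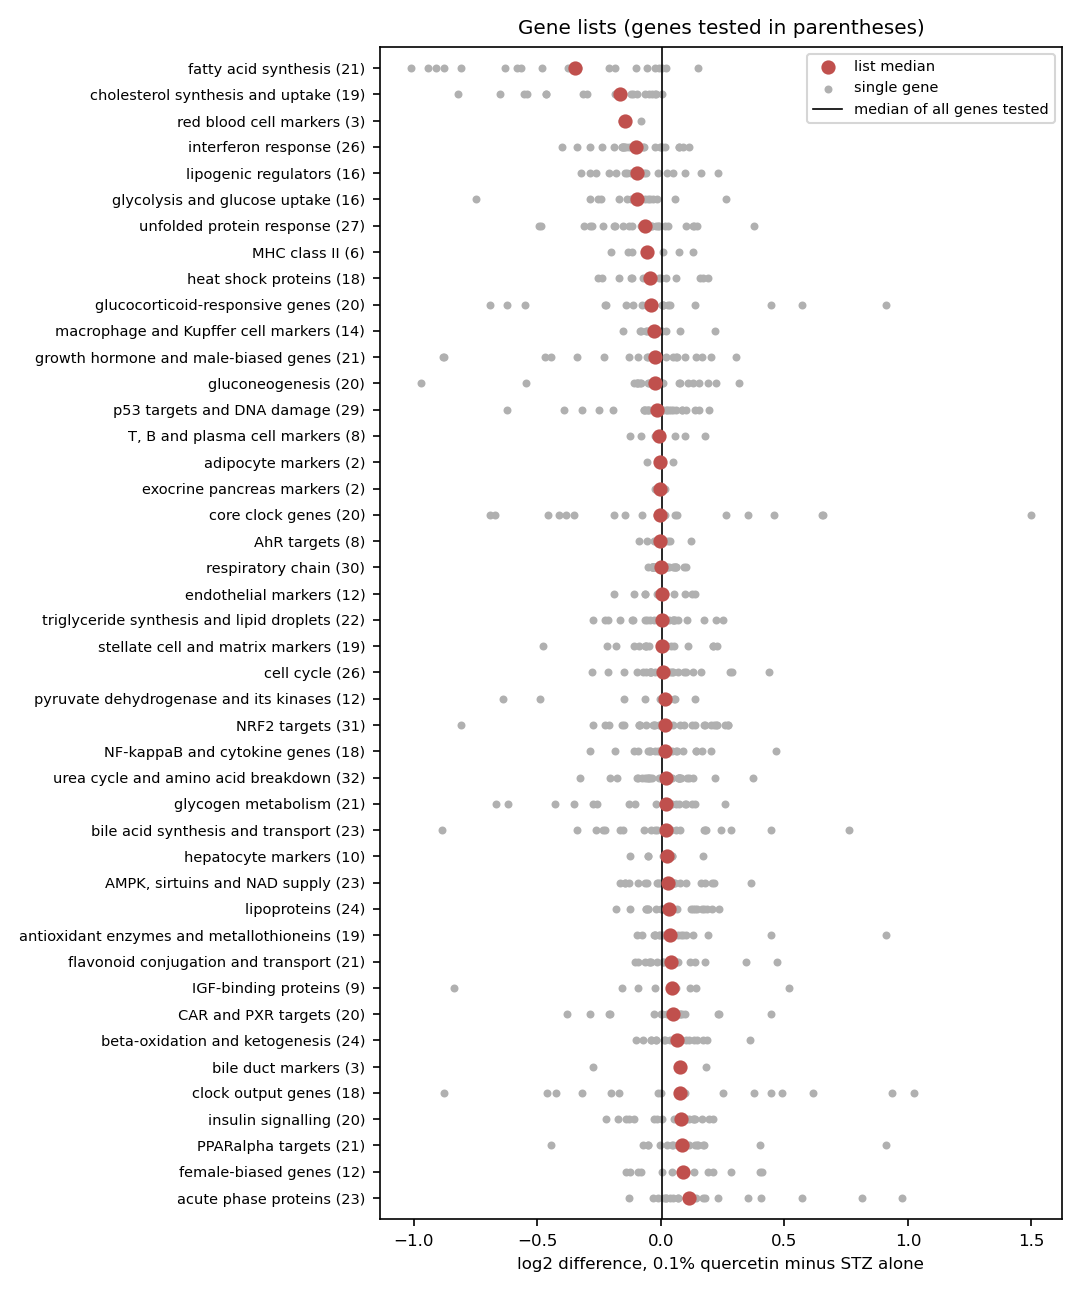
Difference between 0.1% quercetin and STZ alone for the members of 44 gene lists (x axis: log2 difference, 0.1% quercetin minus STZ; y axis: the lists, with the number of genes tested in parentheses). Grey points are genes, red points list medians and the vertical line the median of all 13114 genes. Fatty acid synthesis, with a median of -0.35, lies farthest from the line, and the core clock genes are spread from -0.69 to 1.50.

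The smallest p in the comparison belonged to Pdk4, and its sister gene Pdk1 also ranked among the 8 lower genes with the smallest p. Both encode kinases that phosphorylate and shut the pyruvate dehydrogenase complex, which stops the conversion of pyruvate to acetyl-CoA, and Pdk4 is the form that fasting, insulin lack and fatty acids are known to raise. The Pdk4 level was 4.53, 4.85 and 4.98 (lowest, median and highest) at 0.1% quercetin and 5.06, 5.44 and 5.75 in STZ mice. Every mouse on 0.1% quercetin lay below every STZ mouse. The difference was -0.64 (SE 0.126, 95% interval -0.90 to -0.38), with an unadjusted p of 2.71e-05 and an adjusted p of 0.356 by limma, and 0.00216 by the exact permutation test, the smallest p that this test can give with 6 mice a group. Pdk4 is a dim transcript here, so the constant of 16 shrinks its fold: the mean normalised intensities were 11.9 ± 3.73 at 0.1% quercetin and 27.4 ± 6.72 in STZ mice (SD, n = 6 each), a ratio of 0.432. Its mean level was 5.05 at 0.5% quercetin (5.02 without replicates 5 and 6) and 5.02 in untreated mice. Leaving out STZ replicate 5, the lowest STZ mouse, gave the smallest adjusted p of any alternative for Pdk4 (0.0847), and leaving out 0.1% quercetin replicate 6 gave the largest (0.999).

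Pdk1 had levels of 6.46, 6.85 and 7.01 at 0.1% quercetin and 7.22, 7.27 and 7.45 in STZ mice. These groups did not overlap either. The difference was -0.49 (SE 0.128, adjusted p = 0.870 by limma), and the averages of 7.21 at 0.5% quercetin (7.22 without replicates 5 and 6) and 7.32 in untreated mice lay beside that of STZ alone (7.29). All 3 Pdk1 probe sets above the intensity filter averaged lower, by 0.49, 0.20 and 0.56. Of 12 genes for pyruvate dehydrogenase subunits, kinases and phosphatases, these 2 were the only members at an unadjusted p under 0.05. They were 16.7% of the list, against 2.52% of all genes lower, and the list median was 0.02. The next smallest p was that of Pdhb, the beta subunit of the first enzyme, at -0.15 (SE 0.0979). The Pdk4 promoter is shown because the gene led the comparison. The window runs from 250 bases before to 50 after the RefSeq start (GRCm38.p6, chr6:5496229-5496528, minus strand), is written 5′ to 3′ along the gene, and capitals mark a reverse-complement CCAAT box, whose first base lies at -131.
Pdk4: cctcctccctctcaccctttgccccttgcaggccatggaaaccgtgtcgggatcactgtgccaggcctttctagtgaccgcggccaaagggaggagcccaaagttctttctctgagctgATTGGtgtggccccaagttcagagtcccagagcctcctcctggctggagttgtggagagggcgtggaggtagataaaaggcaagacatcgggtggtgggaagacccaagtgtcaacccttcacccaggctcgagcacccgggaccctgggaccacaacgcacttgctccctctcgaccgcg

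**Figure D2:**
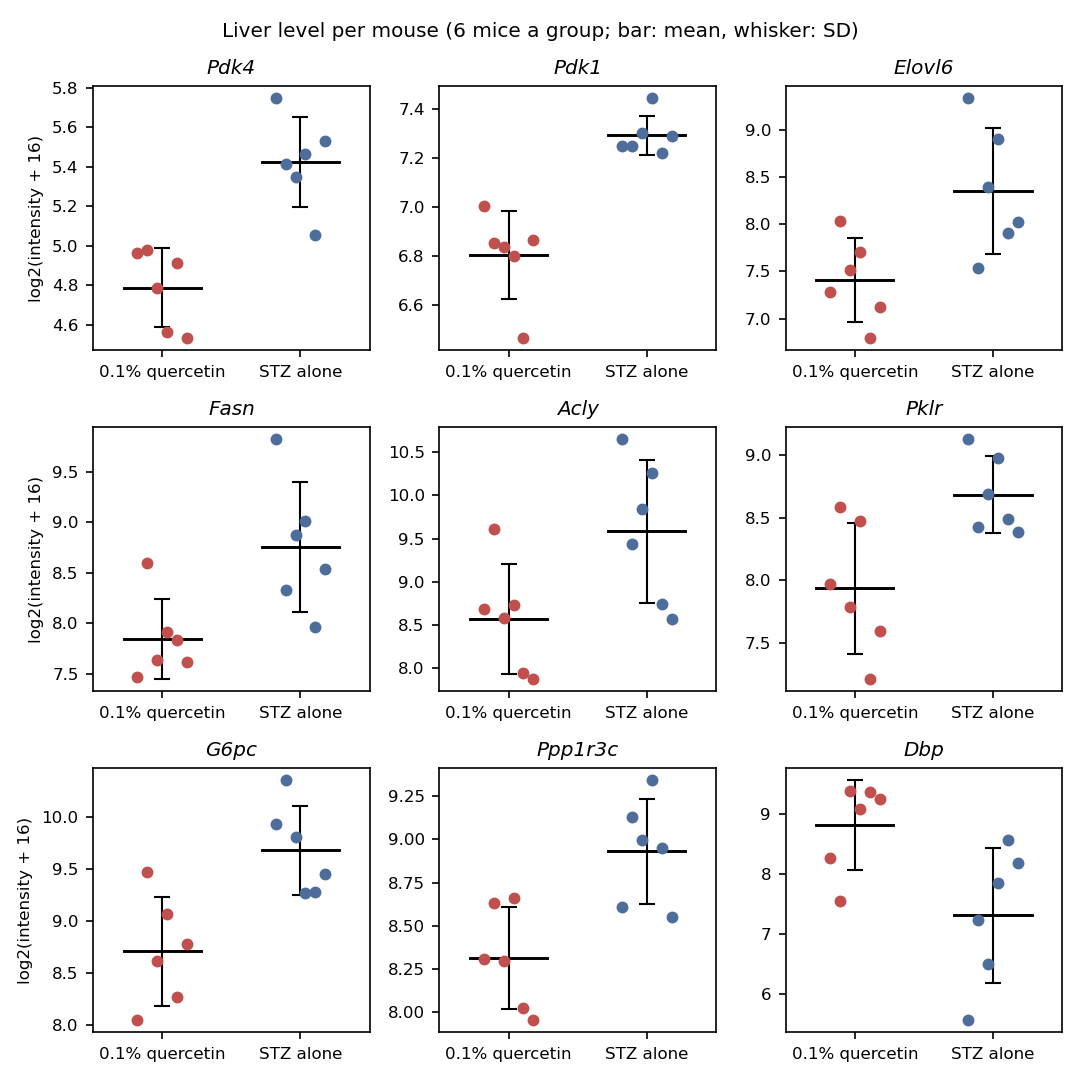
Liver level of 9 genes in each mouse (y axis: log2(normalised intensity + 16), scaled for each gene and not starting at 0; x axis: 6 mice on 0.1% quercetin and 6 STZ mice). Points are mice, horizontal bars means and whiskers SDs. In Pdk4 and Pdk1 the groups do not overlap, in the genes of lipid and glucose metabolism 2 to 5 of the 6 mice on 0.1% quercetin lie below all STZ mice, and in Dbp 4 lie above all of them.

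Genes of fatty acid synthesis averaged lower together at 0.1% quercetin. The pathway turns cytosolic citrate into acetyl-CoA (ATP citrate lyase, Acly) and malonyl-CoA (acetyl-CoA carboxylase, Acaca), builds palmitate with NADPH from malic enzyme (Me1) and the pentose phosphate pathway (Pgd), and then elongates and desaturates it (Elovl6, Elovl5, Scd1). Of its 21 genes tested, 18 averaged below STZ (85.7%, against 47.9% of all genes), and 10 had an unadjusted p under 0.05, all lower (47.6% of the list, against 2.52% of all genes). None had an adjusted p under 0.05. The list had been seen to lie low in earlier results of these data, so its median is a description. Over the alternative settings the number of members at an unadjusted p under 0.05 ranged from 7 to 12 and the median from -0.47 to -0.23, the value without STZ replicate 1 and with a constant of 64.

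Elovl6, which elongates palmitate to stearate, had levels of 6.79, 7.40 and 8.03 at 0.1% quercetin and 7.54, 8.21 and 9.33 in STZ mice. The groups overlapped, with 4 of 6 mice on 0.1% quercetin below all STZ mice, and the difference was -0.94 (SE 0.246, adjusted p = 0.870 by limma). Fasn, the multienzyme that makes palmitate, had levels of 7.47, 7.74 and 8.59 at 0.1% quercetin and 7.96, 8.71 and 9.82 in STZ mice. Here 5 of 6 mice lay below all STZ mice, and the exception, replicate 2, was the highest of its group in Elovl6, Acly, Me1 and Acaca as well. Its difference was -0.91 (SE 0.277), a fold of 0.532 on this scale. Acly differed by -1.01 (SE 0.321), from levels of 7.87, 8.64 and 9.61 at 0.1% quercetin and 8.57, 9.64 and 10.65 in STZ mice, so that the groups overlapped widely. Me1 differed by -0.81 (SE 0.245), with levels of 8.71, 9.26 and 10.31 at 0.1% quercetin and 9.42, 10.03 and 10.97 in STZ mice. The remaining members at an unadjusted p under 0.05 were Scd1, the main hepatic stearoyl-CoA desaturase (-0.56), Acaca (-0.63), Acss2, which makes acetyl-CoA from acetate (-0.58), Pgd (-0.48), Elovl5 (-0.35) and Pnpla3, a lipid droplet hydrolase (-0.34). Pnpla3 lay near the floor, and its difference ran from -1.16 to -0.11 over the alternatives. A second probe set differed by -0.97 for Elovl6, -0.83 for Me1, -0.77 for Acly and -1.35 for Scd1. The last of these averaged 8.96 over all arrays, against 12.4 for the Scd1 probe set used above, and 2 Acly probe sets near the floor differed by -0.02 each.

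Fasn averaged 7.84 at 0.1% and 8.56 at 0.5% quercetin (8.24 without replicates 5 and 6), against 8.76 with STZ alone and 9.0 in untreated mice. Acly averaged 8.57 at 0.1% and 9.42 at 0.5% quercetin (9.11 without them), against 9.58 with STZ alone and 9.76 in untreated mice. In both genes the average at 0.1% quercetin was the lowest of the 4 groups, with and without these 2 mice. The list's median difference was -0.52 for 0.1% quercetin against untreated mice, -0.07 for STZ against untreated mice and -0.04 for 0.5% quercetin against STZ (-0.08 without replicates 5 and 6), comparisons that share groups with the present one. The mean of the list per mouse, relative to the STZ average, was -0.37, 0.04, -0.36, -0.23, -0.81 and -0.64 in replicates 1 to 6 at 0.1% quercetin and 0.45, -0.12, 0.00, 0.20, -0.34 and -0.20 in those of STZ. In 4 of 6 mice on 0.1% quercetin it lay below all STZ mice, and the STZ mice themselves were spread over nearly as wide a range. Since these are bulk livers, fewer cells of a type and less RNA per cell cannot be told apart here or in the results that follow.

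**Figure D3:**
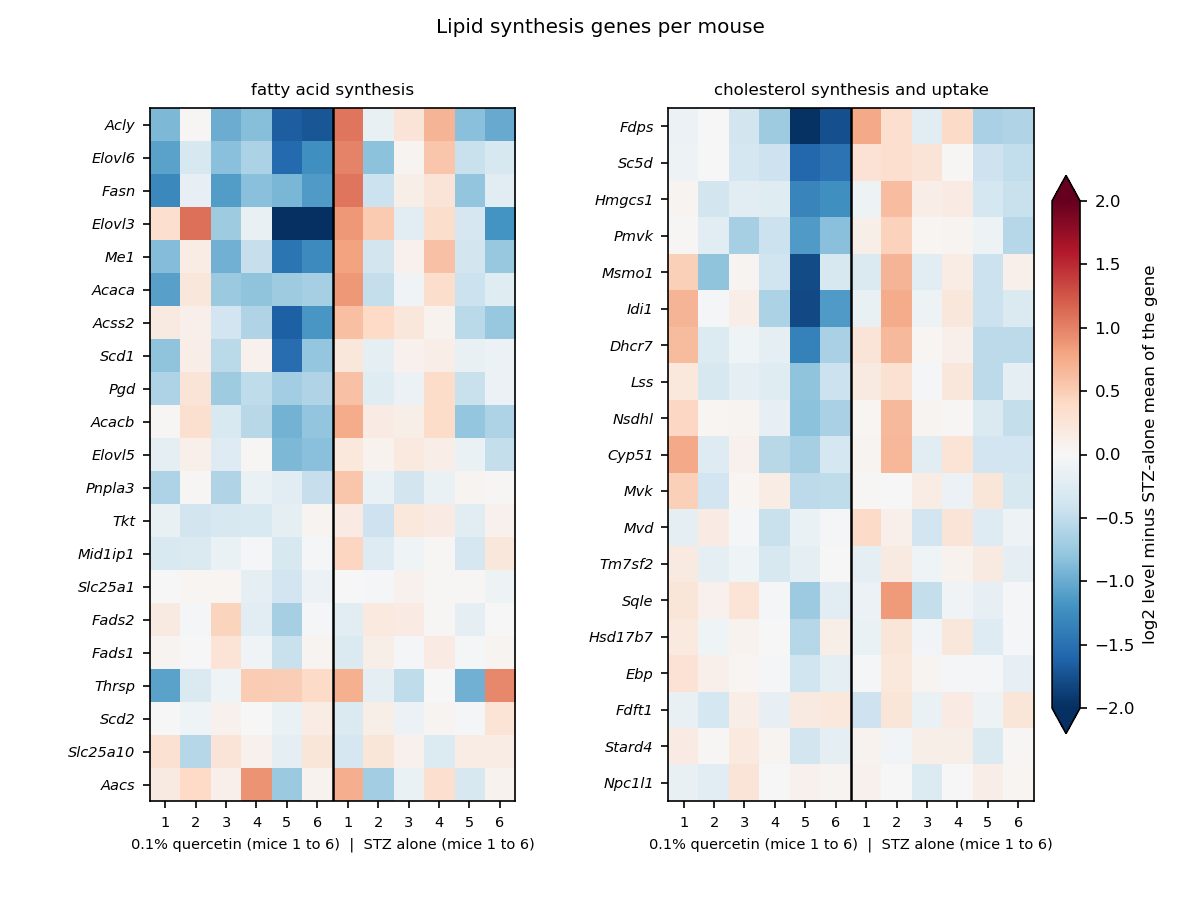
Level of each gene of fatty acid synthesis (left, 21 genes) and of cholesterol synthesis and uptake (right, 19 genes) in each mouse, relative to the gene's STZ average (colour: log2 difference, with values beyond 2 in the end colours; columns: 6 mice on 0.1% quercetin left of the line and 6 STZ mice right of it). Blue dominates the upper rows at 0.1% quercetin, most deeply in replicates 5 and 6. In the left panel replicate 2 resembles the STZ mice. In the right panel the list means of replicates 1 to 3 lie within the range of the STZ mice.

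The promoters of the 3 members with the smallest p are shown because these genes averaged lower together (RefSeq, GRCm38.p6, same window, 5′ to 3′ along the gene). They lie at chr3:129532136-129532435 (plus strand) for Elovl6, chr9:86695865-86696164 (minus strand, the more upstream of 2 starts) for Me1 and chr11:120824498-120824797 (minus strand) for Fasn. Capitals mark, in Elovl6, a FOXO motif (GTAAACA, at -123), in Me1, 4 GC boxes (GGGCGG on the reverse strand, 2 of them adjoining), and in Fasn, 3 CCAAT boxes, of which those at -62 and -59 overlap. Of 32851 mouse promoters of this length, 3.65% held the FOXO motif, 35.7% the GC box and 37.4% the CCAAT box, on either strand. The sterol response element (TCACNCCAC, 1.24% of promoters) and the E-box (CACGTG, 7.15%) were searched too, and these letters are not in the 3 windows.
Elovl6: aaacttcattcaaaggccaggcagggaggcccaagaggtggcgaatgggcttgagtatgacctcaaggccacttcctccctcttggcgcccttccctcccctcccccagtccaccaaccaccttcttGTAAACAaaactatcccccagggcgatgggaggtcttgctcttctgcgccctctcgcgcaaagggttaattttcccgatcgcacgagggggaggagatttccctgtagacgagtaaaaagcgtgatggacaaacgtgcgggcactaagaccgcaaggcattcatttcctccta
Me1: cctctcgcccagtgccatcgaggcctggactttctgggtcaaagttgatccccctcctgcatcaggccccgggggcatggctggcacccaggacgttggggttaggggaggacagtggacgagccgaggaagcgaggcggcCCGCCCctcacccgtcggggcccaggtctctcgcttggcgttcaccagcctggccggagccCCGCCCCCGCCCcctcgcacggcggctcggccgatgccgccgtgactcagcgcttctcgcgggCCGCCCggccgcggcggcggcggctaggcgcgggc
Fasn: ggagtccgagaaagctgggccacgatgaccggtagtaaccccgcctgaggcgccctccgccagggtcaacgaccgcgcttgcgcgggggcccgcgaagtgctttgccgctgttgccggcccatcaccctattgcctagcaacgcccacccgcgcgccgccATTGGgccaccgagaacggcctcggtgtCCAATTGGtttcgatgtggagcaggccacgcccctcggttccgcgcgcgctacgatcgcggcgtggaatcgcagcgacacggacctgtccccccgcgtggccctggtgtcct

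Genes of cholesterol synthesis averaged lower as well, by less. Of 19 genes tested, 18 averaged below STZ (94.7%, against 47.9% of all genes), with a median of -0.17. An unadjusted p under 0.05 was reached by 4, all lower (21.1%, against 2.52% of all genes). The 4 were Fdps, which makes farnesyl diphosphate (-0.82, SE 0.322), Sc5d, a late desaturase of the sterol ring (-0.65, SE 0.239), Hmgcs1, which makes HMG-CoA (-0.55, SE 0.238), and Pmvk, phosphomevalonate kinase (-0.54, SE 0.199). Fdps had levels of 6.82, 8.26 and 8.81 at 0.1% quercetin and 8.15, 8.86 and 9.55 in STZ mice, and the groups overlapped. The mean of the list per mouse was 0.22, -0.16, -0.04, -0.25, -0.84 and -0.51 in replicates 1 to 6 at 0.1% quercetin and 0.05, 0.38, -0.07, 0.12, -0.24 and -0.23 in those of STZ. The difference rested in part on single mice. Without replicate 5 the median was -0.08 and 2 genes had an unadjusted p under 0.05, and without replicate 6 the values were -0.13 and 2. Without replicate 1, the highest, they were -0.31 and 8, and without STZ replicate 2 the median was -0.09.

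Regulators of both pathways lay closer to STZ. Of 16 lipogenic regulators, 0 had an unadjusted p under 0.05, and the median was -0.10. Srebf1, which encodes SREBP-1c, had levels of 7.82, 8.36 and 8.94 at 0.1% quercetin and 8.23, 8.47 and 8.76 in STZ mice, and its difference was -0.14 (95% interval -0.52 to 0.25). Mlxipl (ChREBP) differed by -0.21 (95% interval -0.58 to 0.16). Insig1 and Insig2, which hold SREBP in the endoplasmic reticulum, differed by -0.29 (SE 0.143) and -0.32 (SE 0.157), and Insig2 in replicate 6 at 0.1% quercetin lay far below its group, at 9.93. Among 22 genes of triglyceride synthesis and lipid droplets, Agpat2, an acyltransferase of phosphatidate synthesis, differed by -0.28 (SE 0.0936) and Pnpla2, the adipose triglyceride lipase, by 0.22 (SE 0.0999). Those were the only members at an unadjusted p under 0.05, and the median was 0.01. In each direction that is 4.5% of the list, against 2.52% of all genes lower and 2.71% higher. Gpam, which starts glycerolipid synthesis, had a difference of -0.23 (SE 0.118).

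Glycolysis genes averaged slightly lower in each mouse. The list holds glucose transporters, the glycolytic enzymes and fructokinase. Its mean relative to the STZ average was -0.19 to -0.09 at 0.1% quercetin and -0.06 to 0.03 in STZ mice. The 6 mice on 0.1% quercetin thus lay below all STZ mice. No other list kept the groups apart, and the lists were chosen with earlier results of these data known. The mean was -0.13 to -0.02 at 0.5% quercetin and -0.11 to -0.02 in untreated mice. Those ranges also lay below the STZ average, and they overlapped that of the STZ mice. In single genes the differences were mostly small: 14 of 16 averaged below STZ (87.5%, against 47.9% of all genes), and the median was -0.09. An unadjusted p under 0.05 was reached by 2, both lower (12.5%, against 2.52% of all genes). Pklr, the liver pyruvate kinase and a classical ChREBP target, was the larger, with levels of 7.21, 7.88 and 8.58 at 0.1% quercetin and 8.39, 8.59 and 9.13 in STZ mice. In 4 mice it lay below all STZ mice, the difference was -0.75 (SE 0.190, adjusted p = 0.870 by limma), and its 3 probe sets differed by -0.75, -0.65 and -0.62. Khk, fructokinase, differed by -0.29 (SE 0.106), with 4 of 6 mice below all STZ mice. The glucose transporter gene Slc2a1 differed by -0.24 (SE 0.120). On the values as deposited, without normalisation between arrays, the list median was -0.15 where that of all genes was -0.04.

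Glycogen genes split into a lower part and a part near STZ. Of 21 genes tested, 5 had an unadjusted p under 0.05, all lower (23.8%, against 2.52% of all genes), while the median was 0.02. Pygl, the liver glycogen phosphorylase that releases glucose units, had a median of 10.17 and a highest level of 10.52 at 0.1% quercetin, against a lowest level of 10.38 and a median of 10.56 in STZ mice, with 5 of 6 mice below all STZ mice. Its difference was -0.35 (SE 0.0925, adjusted p = 0.870 by limma). The others included 3 glycogen-targeting subunits of protein phosphatase 1, which bring the phosphatase to glycogen and so favour storage. Ppp1r3c had levels of 7.95, 8.30 and 8.66 at 0.1% quercetin and 8.55, 8.97 and 9.34 in STZ mice, a difference of -0.62 (SE 0.182). Ppp1r3b, the main hepatic subunit, differed by -0.67 (SE 0.213), and Ppp1r3g by -0.43 (SE 0.142) at levels near the floor. Gbe1, the branching enzyme, differed by -0.27 (SE 0.113). In untreated mice Ppp1r3c averaged 9.34, Ppp1r3b 8.31 and Ppp1r3g 4.66.

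Among genes of gluconeogenesis, G6pc differed most. G6pc encodes the catalytic subunit of glucose-6-phosphatase, the last step of hepatic glucose release, and is among the genes that insulin is best known to repress. Its levels were 8.05, 8.70 and 9.47 at 0.1% quercetin and 9.27, 9.63 and 10.35 in STZ mice. In 5 of 6 mice it lay below all STZ mice, and the difference was -0.97 (SE 0.300, adjusted p = 0.870 by limma, exact permutation p = 0.00866), a fold of 0.511 on this scale. G6pc averaged 9.71 at 0.5% quercetin (9.41 without replicates 5 and 6) and 9.29 in untreated mice. Pck1, the cytosolic PEP carboxykinase that shares much of its regulation, differed by -0.08 with a 95% interval of -0.43 to 0.27, and its sign turned without 0.1% quercetin replicate 2 (0.03). Ppargc1a, the coactivator PGC-1alpha, differed by 0.01 (95% interval -0.22 to 0.23). Of the 20 genes, the only other at an unadjusted p under 0.05 was Fbp2, the muscle-type fructose bisphosphatase, at 0.32 and near the floor. In each direction that is 5% of the list, against 2.52% of all genes lower and 2.71% higher. The list median was -0.02. Got1, the cytosolic aspartate aminotransferase, differed by -0.55 (SE 0.288). The G6pc promoter is shown for the motifs that insulin signalling is known to act through (chr11:101367466-101367765, plus strand, GRCm38.p6). Capitals mark CCAAT boxes at -204 and -214, on opposite strands, and, at -174, the reverse complement of CAAAACA, the core of an insulin response element, which 6.28% of the promoters held.
G6pc: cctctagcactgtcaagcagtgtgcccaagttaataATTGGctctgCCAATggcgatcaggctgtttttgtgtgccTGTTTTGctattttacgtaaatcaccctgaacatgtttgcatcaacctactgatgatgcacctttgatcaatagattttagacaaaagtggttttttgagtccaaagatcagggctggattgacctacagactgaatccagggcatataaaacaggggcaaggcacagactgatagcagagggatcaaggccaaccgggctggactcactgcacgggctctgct

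Other insulin-related genes lay on both sides of STZ. Igfbp1, an IGF-binding protein that insulin represses through FOXO1, had levels of 7.57, 8.20 and 8.92 at 0.1% quercetin and 7.95, 8.84 and 10.12 in STZ mice. The groups overlapped, with 2 mice on 0.1% quercetin below all STZ mice, and the difference was -0.84 (SE 0.328, exact permutation p = 0.0693). Igfbp2 had a difference in the other direction, 0.52 (SE 0.291). Irs2, an insulin receptor substrate that FOXO1 induces, differed by 0.19 (95% interval -0.10 to 0.49). Of 20 insulin signalling genes, 0 had an unadjusted p under 0.05, and the median was 0.08. Txnip, a glucose-responsive inhibitor of thioredoxin, differed by 0.19 (95% interval -0.16 to 0.55).

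**Figure D4:**
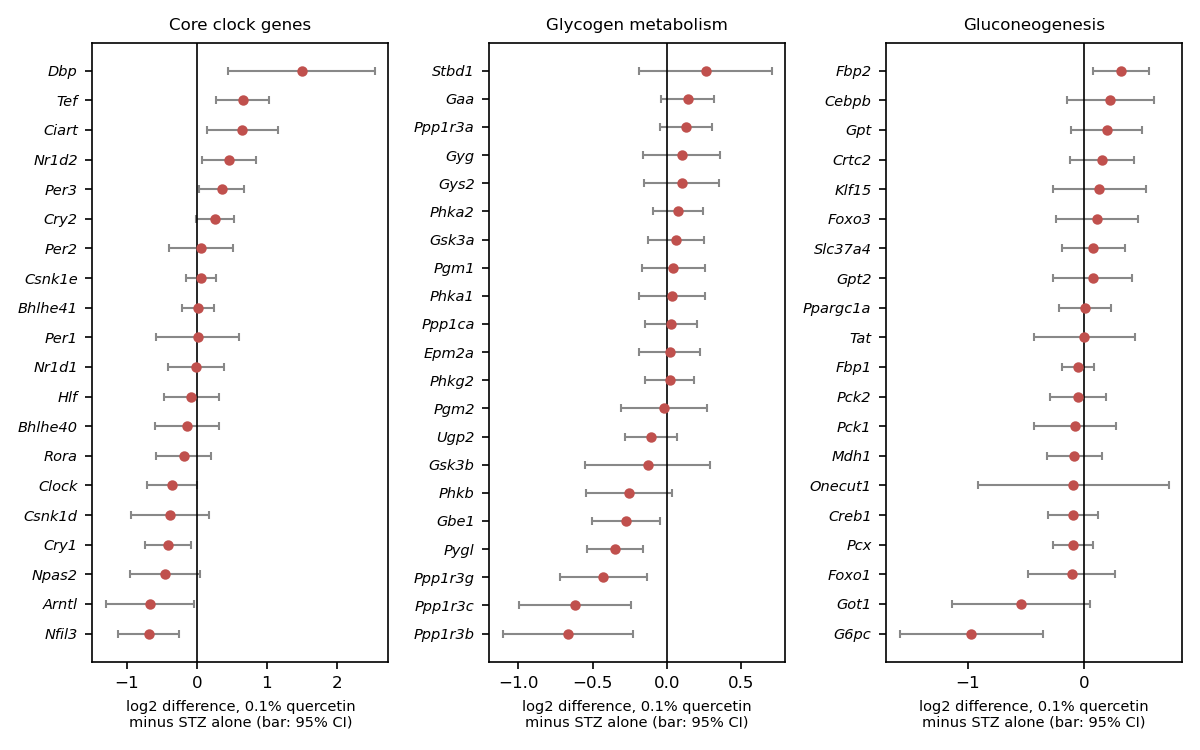
Difference between 0.1% quercetin and STZ for each tested gene of the core clock (20), of glycogen metabolism (21) and of gluconeogenesis (20). Points are log2 differences, 0.1% quercetin minus STZ, bars are 95% intervals from limma, and the x axes differ between panels. Clock genes lie on both sides of 0, from -0.69 (Nfil3) to 1.50 (Dbp), with wide bars, while in the other panels G6pc (-0.97), Ppp1r3b (-0.67) and Ppp1r3c (-0.62) lie farthest below 0.

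Core clock genes were the other list with many members at a small p, in both directions. The hepatic clock runs on the activators Clock, Arntl (BMAL1) and Npas2, whose targets of the Per, Cry and Nr1d families repress them in turn, and passes its phase on through the PAR-bZIP factors Dbp, Tef and Hlf and their opponent Nfil3. Of 20 genes tested, 8 had an unadjusted p under 0.05, 5 higher and 3 lower, against 5.24% of all genes, and as many averaged above STZ as below (10 each). The number ranged from 4, without STZ replicate 1, to 12 over the alternatives. Dbp had levels of 7.54, 9.16 and 9.38 at 0.1% quercetin and 5.56, 7.54 and 8.56 in STZ mice. In 4 mice it lay above all STZ mice, and the difference was 1.50 (SE 0.511, adjusted p = 0.870 by limma), a fold of 2.83. Tef differed by 0.65 (SE 0.185), Ciart, a repressor of the clock, by 0.65 (SE 0.248), Nr1d2 (REV-ERB beta) by 0.46 (SE 0.189) and Per3 by 0.35 (SE 0.157). On the lower side, Nfil3 differed by -0.69 (SE 0.214), Arntl by -0.67 (SE 0.307) and Cry1 by -0.41 (SE 0.159). Clock (-0.35, SE 0.175) and Npas2 (-0.46, SE 0.246), the partners of Arntl, missed an unadjusted p of 0.05. Ciart, Per3 and Npas2 lay near the floor, with means over all arrays of 4.48, 4.65 and 4.66. Other probe sets above the intensity filter differed by 1.32 for Dbp, 0.31 for Nr1d2 and 0.08 to 0.42 for Per3. Those of Clock differed by -0.16, -0.09 and -0.005. Dim ones differed by -0.0002 for Arntl and by 0.003 and 0.43 for Tef.

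Per1 and Nr1d1, which repress the clock, lay near STZ. Per1 differed by 0.01 with a 95% interval of -0.58 to 0.60 and changed sign under several alternatives, and Nr1d1 differed by -0.01 (95% interval -0.41 to 0.39). Dbp varied with the replicate number as well as between the groups. Its levels in replicates 1 to 6 were 8.26, 7.54, 9.38, 9.08, 9.36 and 9.24 at 0.1% quercetin and 5.56, 7.24, 6.50, 7.84, 8.56 and 8.17 in STZ mice. In all 4 groups replicates 5 and 6 lay above replicates 1 and 2, and at each of the 6 numbers the mouse on 0.1% quercetin lay above the STZ mouse. The labels do not say what mice of 1 number share. Among 18 clock output genes, 4 had an unadjusted p under 0.05: Upp2, a uridine phosphorylase (1.02, SE 0.397), and Usp2, a ubiquitin protease (0.93, SE 0.380), averaged higher, and Tars (-0.43) and Lonrf3 (-0.46) lower. In each direction that is 11.1% of the list, against 2.71% of all genes higher and 2.52% lower. The time of day at which each liver was collected is not given in the sources used here. The STZ mouse with the highest mean of the fatty acid synthesis list, replicate 1 at 0.45, had the lowest Dbp of the 12 mice (5.56), and the mouse on 0.1% quercetin with the lowest, replicate 5 at -0.81, had a Dbp of 9.36. The part of the clock genes in the lipid and glucose results was not tested.

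Genes of fatty acid breakdown lay near STZ. Of 24 genes of beta-oxidation and ketogenesis, 6 averaged below STZ (25.0%, against 47.9% of all genes), and the median was 0.07. An unadjusted p under 0.05 was reached by 2, both higher (8.33%, against 2.71% of all genes). These were Acadvl, the very long chain acyl-CoA dehydrogenase, with levels of 10.05 to 10.28 at 0.1% quercetin and 9.93 to 10.09 in STZ mice (0.15, SE 0.0637), and Eci2, an enoyl-CoA isomerase (0.36, SE 0.160). Cpt1a, which admits fatty acids to the mitochondrion, differed by 0.19 (95% interval -0.07 to 0.44). None of 21 PPARalpha targets had an unadjusted p under 0.05, and Cyp4a14, the most inducible of them, varied widely, at 5.68, 7.82 and 9.59 at 0.1% quercetin and 5.36, 6.71 and 9.30 in STZ mice. Fgf21, a hepatic fasting hormone, differed by 0.06 (95% interval -0.42 to 0.55), with a sign that turned when some single mice were left out. Of 24 lipoprotein genes, Scarb1, the HDL receptor, differed by 0.24 (SE 0.112, 5 of 6 mice above all STZ mice). It was the only member at an unadjusted p under 0.05 (4.17%, against 2.71% of all genes higher). Among 23 bile acid genes the only such member was Cyp8b1, the sterol 12-alpha-hydroxylase (-0.89, SE 0.360), or 4.35% against 2.52% of all genes lower. Its levels at 0.1% quercetin ran from 6.75 to 9.97, against 9.37 to 10.23 in STZ mice. Cyp7a1, which commits cholesterol to bile acids, differed by 0.76 with a 95% interval of -0.61 to 2.14.

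Genes that flavonoids are known to act on mostly lay near STZ. Cyp1a1, a sensitive target of the aryl hydrocarbon receptor, had levels of 4.54, 4.77 and 4.99 at 0.1% quercetin and 4.30, 4.69 and 4.80 in STZ mice, close to the floor in both, and the difference was 0.12 (95% interval -0.07 to 0.32). Of 8 targets of the receptor tested, 0 had an unadjusted p under 0.05. Among 31 NRF2 targets, 3 had an unadjusted p under 0.05. Higher were 2 (6.45%, against 2.71% of all genes) and lower 1 (3.23%, against 2.52%). Gsr, glutathione reductase (0.22, SE 0.0841), and Gclm, the modifier subunit of glutamate-cysteine ligase (0.26, SE 0.110, and 0.03 at a second probe set), averaged higher. Me1, counted with fatty acid synthesis too, averaged lower. Gclm was at 9.56 and 9.21 in replicates 5 and 6 at 0.1% quercetin. Replicates 1 to 4 lay at 8.72 to 8.91, against 8.67 to 8.81 in STZ mice. Nqo1, a quinone reductase, differed by -0.09 (95% interval -0.40 to 0.22) and Hmox1, haem oxygenase 1, by 0.17 (95% interval -0.11 to 0.46). The list median was 0.02. Of 21 genes that conjugate or transport flavonoids, 0 had an unadjusted p under 0.05, with a median of 0.04, and the one with the smallest p was Abcb1a, the efflux pump P-glycoprotein (0.47, SE 0.269). Mt1, a metallothionein, had levels of 7.77, 9.06 and 10.32 at 0.1% quercetin and 6.14, 8.22 and 9.63 in STZ mice, a difference of 0.91 (95% interval -0.03 to 1.86).

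**Figure D5:**
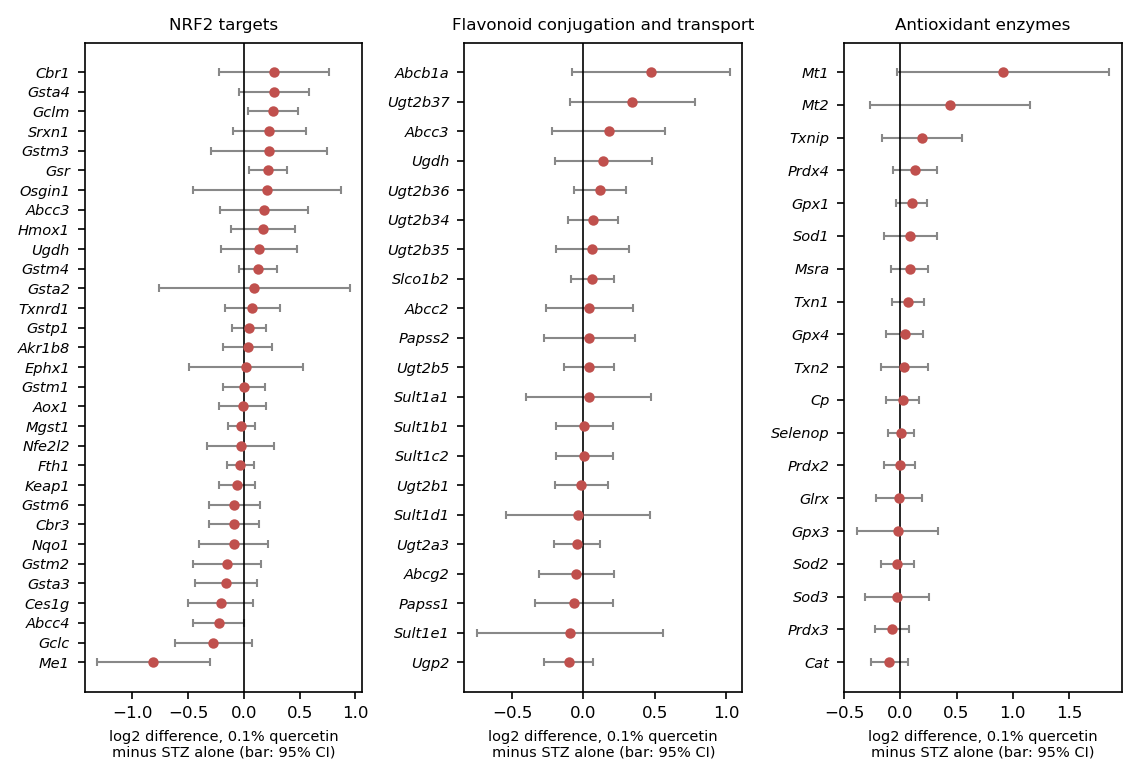
Difference between 0.1% quercetin and STZ for each tested NRF2 target (31), gene of flavonoid conjugation and transport (21) and antioxidant enzyme or metallothionein (19). Points are log2 differences, 0.1% quercetin minus STZ, and bars 95% intervals from limma, with x axes that differ between panels. Apart from Me1 at -0.81, Gsr at 0.22 and Gclm at 0.26, the bars of the NRF2 targets include 0, as do those of the other panels.

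Genes of the p53 and DNA damage response and of the interferon response were measured too. Cdkn1a (p21), the classical p53 target, had levels of 7.52, 8.08 and 8.48 at 0.1% quercetin and 8.40, 8.63 and 8.91 in STZ mice, against an average of 5.52 in untreated mice. In 5 of 6 mice on 0.1% quercetin it lay below all STZ mice. Its difference of -0.62 had an exact permutation p of 0.00433 over these 12 mice and an adjusted p of 0.992 by limma (SE 0.500). That spread counts replicates 5 and 6 at 0.5% quercetin, named above for their low Cdkn1a. Without those 2 mice the SE was 0.224 and the unadjusted p 0.00997, and with the 12 arrays alone the SE was 0.142. The adjusted p by limma ran from 0.209 to 1 over the alternatives. A second, dim probe set of Cdkn1a differed by -0.08. With all 24 arrays, 1 of 29 p53 and DNA damage genes had an unadjusted p under 0.05 (3.45%, against 2.52% of all genes lower). This was Bbc3 (Puma), which promotes apoptosis, at -0.32 (SE 0.133), and the list median was -0.01. Trp53inp1, another p53 target, differed by -0.39 (SE 0.232). In the interferon response, 19 of 26 genes averaged below STZ (73.1%, against 47.9% of all genes), and the median was -0.10. Here 1 gene had an unadjusted p under 0.05 (3.85%, against 2.52% of all genes lower), Rsad2 (viperin), at -0.34 (SE 0.147). Ifit1 had a difference of -0.40 (SE 0.198), with 5 of 6 mice below all STZ mice.

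Acute phase proteins, which the liver makes in inflammation, lay on the other side. Of 23 genes, 3 averaged below STZ (13.0%, against 47.9% of all genes), the median was 0.11, and 2 had an unadjusted p under 0.05, both higher, against 2.71% of all genes. Saa4, a constitutive serum amyloid A, had levels of 10.16, 10.44 and 10.64 at 0.1% quercetin and 9.39, 10.12 and 10.36 in STZ mice, a difference of 0.41 (SE 0.159, adjusted p = 0.885 by limma). Lbp, which carries lipopolysaccharide to its receptor, differed by 0.35 (SE 0.146). The inducible Saa1 differed by 0.82 (SE 0.422), and its highest mouse on 0.1% quercetin reached 12.04 while the median of the group was 9.27. Among 18 NF-kappaB and cytokine genes, 9 averaged below STZ and 9 above, and the median was 0.02. Here 1 gene had an unadjusted p under 0.05 (5.56%, against 2.71% of all genes in that direction). This was Il1r1, the interleukin-1 receptor, which differed by 0.47 (SE 0.174), with 4 of 6 mice above all STZ mice. The MHC class II genes, of which 6 were tested, gave 0 at an unadjusted p under 0.05.

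Markers of other cell types mostly lay near STZ. The lists of macrophages and Kupffer cells (14 genes tested), endothelium (12), T, B and plasma cells (8), adipocytes (2), exocrine pancreas (2) and red blood cells (3) had 0 members at an unadjusted p under 0.05. Their medians ran from -0.15 for red blood cells to 0.00 for endothelium. The mean of the macrophage list ran from -0.12 to 0.16 at 0.1% quercetin and from -0.11 to 0.12 in STZ mice, relative to the STZ average, and that of the endothelial list from -0.07 to 0.09 at 0.1% quercetin and from -0.06 to 0.07 in STZ mice, so that the groups overlapped. Lrat, which stores retinol in stellate cells, had levels of 4.92, 5.21 and 5.54 at 0.1% quercetin and 5.35, 5.72 and 5.96 in STZ mice (-0.48, SE 0.127), and Col5a1, a collagen of the same list, differed by 0.21 (SE 0.0988), the only 2 of its 19 genes at an unadjusted p under 0.05. In each direction that is 5.26% of the list, against 2.52% of all genes lower and 2.71% higher. The probe sets of Col5a1 disagreed, with -0.13 at a second one of like brightness and 0.02 for their mean, so its direction is not settled. Of 3 bile duct markers, Sox9 had a difference of -0.27 (SE 0.0971) near the floor, and -0.07 at a second probe set of like brightness. The other 2, Epcam (0.18, and -0.09 at a second probe set) and Krt19 (0.08), averaged above STZ. The list median was 0.08.

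Several of the genes with the smallest p were outside the groups above. Besides Pdk4, Pklr, Elovl6, Pdk1, Pygl and Lrat, the 8 lower genes with the smallest p held 1700094D03Rik, a predicted gene with levels of 4.86, 5.08 and 5.31 at 0.1% quercetin and 5.28, 5.47 and 5.70 in STZ mice (-0.42, SE 0.0996), and Il34, a macrophage growth factor near the floor (-0.40, SE 0.107). The 8 higher ones were Fa2h, a fatty acid 2-hydroxylase (0.41), Aff2, a nuclear RNA-binding protein (0.29), Plekhg3 (0.33), Zc3h3, a zinc finger protein (0.55), Ephb1, an ephrin receptor (0.32), Tef, Dmwd (0.46) and Pcbp4, an RNA-binding protein (0.40), each with an adjusted p of 0.870 by limma. Of these, Fa2h, Aff2, Zc3h3 and Ephb1 lay close to the floor in both groups, where the constant of 16 shrinks differences. A second Aff2 probe set of like brightness differed by 0.00174. Among these 8, Plekhg3 alone did not overlap between the groups, with levels of 5.64, 5.78 and 5.88 at 0.1% quercetin and 5.25, 5.43 and 5.60 in STZ mice. Among the other genes without overlap, chosen here after their values were seen, were Stx7, an endosomal SNARE (-0.29, SE 0.0790), Stat6, which transmits interleukin-4 signals (0.25, SE 0.0794), and Mcm10, a DNA replication factor (0.46, SE 0.210). A second, dimmer probe set differed by -0.03 for Stat6 and -0.04 for Mcm10. Dimmer probe sets of 1700094D03Rik differed by -0.14 and -0.05.

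A list of single genes picked from liver physiology, with earlier results of these data known, lay low more often than high. Of its 33 genes 29 were tested, and of these 11 had an unadjusted p under 0.05, 10 lower and 1 higher (Dbp), against 5.24% of all genes, and 0 an adjusted p under 0.05. The 10 were Pdk4, G6pc, Pklr, Igfbp1 and 6 genes of fatty acid synthesis, Fasn, Acly, Acaca, Elovl6, Scd1 and Me1. These counts follow from how the genes were picked and stand as a description of the members.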

How the data were processed

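Total RNA of each liver was amplified to biotin-labelled cRNA and hybridised to an Affymetrix 3' expression array, per the labels' protocols. The authors deposited 1 intensity per probe set and array, on a linear scale. The summary algorithm and any scaling are not given in the sources used here. Array means and medians differed, so intensities were quantile-normalised, 16 was added, and log2 was taken. Each gene was represented by its brightest probe set among those with 1 symbol in the platform annotation (34958 of 45101 probe sets, with 932 naming several genes and 9211 none), and genes below the 40th percentile of mean level (4.313) were left out.

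Groups came from the sample titles. The 4 group means were fitted over all 24 arrays with limma 3.58.1 (R 4.3.3), and p-values were adjusted by Benjamini-Hochberg over 13114 genes at a threshold of 0.05. Exact permutation tests were two-sided over 924 arrangements. The fit was checked on simulated data. The members and all 44 lists (920 entries, 830 on the array) were chosen with earlier results of these data known. Named genes were the 8 lower and 8 higher with the smallest p, up to 4 per list by smallest p, and 33 single genes; further members at an unadjusted p under 0.05 were named after their values were seen. No set test was run. Alternatives were other scalings, constants, filters, probe set rules, arrays, a replicate block, array weights, an RNA quality covariate and leaving out each mouse. The number of arrays limits the precision.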

Additional observations from a re-analysis of the deposited data

Results flagged for a closer look

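Of 216 groups of 6 mice examined for a single distant value, 11 held one, where chance gives about 1 in 20. At 0.1% quercetin, replicate 2 lay above its group in Acaca (7.43) and Pgd (8.51), both genes of lipid synthesis or its NADPH supply. Replicate 3 lay high in Il34 (4.77), replicate 4 in Stat6 (7.05) and replicate 5 in Abcb4, the phospholipid exporter of bile (10.37), while replicate 6 lay low in Insig2 (9.93). In STZ mice, replicate 4 lay high in Pdk1 (7.45) and replicate 6 in Cyp4a14 (9.30) and in the interferon-induced Ifit1 (7.64). Replicate 1 of the STZ mice lay low in Cpt1a (8.98) and replicate 2 in Cyp1a1 (4.30).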

How the results depend on the processing

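No setting gave a gene at an adjusted p under 0.05 by limma. The lowest adjusted p was 0.0847, for Pdk4 without STZ replicate 5. Pdk4 differed by -1.17 with a constant of 1 and by -0.27 with a constant of 64. The 687 genes at an unadjusted p under 0.05 became 380 on the values as deposited and 1179 when every probe set was tested, and 543 to 844 when single mice were left out. The genes without overlap became 15, 58 and 44 to 73 in the same order. The split of higher against lower genes was 356 to 331, against 75 to 305 on the deposited values and 192 to 411 after median scaling. The replicate block gave 0 genes at an adjusted p under 0.05 and 708 at an unadjusted one, and 879 with the 12 arrays only. Its smallest adjusted p by limma over the 24 arrays, 0.188, was shared by Dbp and Nfil3 among the genes named here. For Dbp the SE was 0.289 with the block, against an SE of 0.511 and an adjusted p of 0.870 without it. Same-numbered mice deviated together in 2 of 6 pairs (correlations -0.01 to 0.32), and the main test did not take the numbers as pairs. The numbers still went with a shared difference. On the second principal component replicates 5 and 6 lay below replicates 1 and 2 in all 4 groups. At 0.1% quercetin replicates 5 and 6 were at -10.4 and -11.7, against 6.64 and 6.82. In STZ mice they were at 0.319 and -4.64, against 9.57 and 5.91. What this component reflects was not tested. Of the differences of single genes, 2718 values kept their direction and 26 turned. Per1 turned to -0.0145 on deposited values, -0.00047 after median scaling, -0.18 with a constant of 1 and -0.0228 with array weights. Ppargc1a turned to -0.0364 on deposited values, -0.0110 after median scaling and -0.0573 as the mean of probe sets. Without single mice, Per1 ran from -0.15 to 0.254, Ppargc1a from -0.0497 to 0.0610, Fgf21 from -0.0322 to 0.217, Nqo1 from -0.223 to 0.0077 and Pck1 from -0.17 to 0.0295. Why these turned was not tested.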

Other observations

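Glucocorticoid-responsive genes held 2 of 20 members at an unadjusted p under 0.05, both lower at 0.1% quercetin (10%, against 2.52% of all genes). The list median was -0.04. Zbtb16, a transcription factor that glucocorticoids induce, averaged 6.45 at 0.1% quercetin and 7.14 in STZ mice (-0.69, SE 0.247). Dusp1, a phosphatase of stress kinases, averaged 8.31 at 0.1% quercetin and 8.86 in STZ mice (-0.55, SE 0.224). Targets of the nuclear receptors CAR and PXR held 2 of 20 as well (10%, against 2.52% of all genes lower). These were Cyp2c29 (-0.29, SE 0.103) and Cyp2c50 (-0.38, SE 0.159), while the list median was 0.05.

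Of 21 growth hormone dependent and male-biased genes, 1 had an unadjusted p under 0.05 (4.76%, against 2.52% of all genes lower), Cyp2d9 (-0.23, SE 0.0910). Hsd3b5, a male-specific steroid dehydrogenase, averaged 8.62 at 0.1% quercetin and 9.50 in STZ mice, against 11.38 in untreated mice. Among 32 genes of the urea cycle and amino acid breakdown, Bhmt, which remethylates homocysteine, differed by -0.18 (SE 0.0735) and Uroc1, urocanase, by 0.37 (SE 0.157). The 2 probe sets of Uroc1 disagreed, with -0.36 at the dimmer one and 0.00575 for their mean, so its direction is not settled. In the unfolded protein response 20 of 27 genes averaged below STZ (74.1%, against 47.9% of all genes), with 0 at an unadjusted p under 0.05 and a median of -0.06. Heat shock proteins held 1 lower and 1 higher of 18 at that level (median -0.04). In each direction that is 5.56% of the list, against 2.52% of all genes lower and 2.71% higher. Cell cycle genes held 1 of 26 (3.85%, against 2.52% of all genes lower), the cyclin gene Ccnd2 (-0.28, SE 0.0843). Other Ccnd2 probe sets above the intensity filter differed by -0.03, 0.00, 0.16 and -0.07, and the mean of probe sets by -0.02. The respiratory chain (30 genes), female-biased genes (12) and the AMPK, sirtuin and NAD list (23) held 0, with medians of -0.00, 0.09 and 0.03. Antioxidant enzymes and metallothioneins (19 genes) held 0 with a median of 0.04, and clock output genes had a median of 0.08.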
